A study of Mus musculus with 26 samples.

Results

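The data described here are the 20 batch 1 libraries of mouse left ventricle, out of 26 in the series, in which 2 strains and 2 treatments cross in equal numbers. Batch 1 is the only batch that holds all 4 combinations, with 5 libraries each, and the labels give strain, treatment and batch for every library. The groups were BPN/3J mice on vehicle (BPN_vehicle), BPN/3J mice on Cmpd17b (BPN_Cmpd17b), BPH/2J mice on vehicle (BPH_vehicle) and BPH/2J mice on Cmpd17b (BPH_Cmpd17b). Cmpd17b was given intraperitoneally at 50 mg/kg/day, and both drug and vehicle were given for 28 days. BPH/2J is an inbred hypertensive strain and BPN/3J its normotensive counterpart, so the strains differ at many loci besides those of blood pressure. Sample titles carry animal identifiers, so a library stands for its own animal. The mice were adult, and their exact age is not given in the sources used here. The quantity measured was the strain by drug difference, that is the log2 effect of Cmpd17b in BPH/2J minus that in BPN/3J. A positive value means that the drug group lay higher relative to vehicle in BPH/2J than in BPN/3J.

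Cmpd17b is a small-molecule agonist of the formyl peptide receptors FPR1 and FPR2, G protein-coupled receptors best known on neutrophils and macrophages, where annexin A1 acting on FPR2 helps to end inflammation. The working ventricle burns mainly fatty acids, and the nuclear receptor PPARα drives many of the genes for their uptake and oxidation. When the ventricular wall is stretched or loaded, cardiomyocytes transcribe the natriuretic peptides and a set of fetal genes. An interaction design asks whether a drug moves such programmes differently in hypertensive and normotensive hearts, rather than whether it moves them in either.

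Total counts ran from 28498700 to 48648200 per library, and mitochondrially encoded genes took 31.17% to 38.68% of them. All 12 cardiomyocyte markers were detected, with a summed level of 68070 to 83920 CPM (counts scaled to library size, here by the TMM method, as are all levels below). The strain by drug differences in total count, mitochondrial share, number of genes detected and median rank correlation with the other libraries had exact permutation p of 0.149, 0.56, 0.951 and 0.417 (two-sided, treatment labels permuted within each strain, 63504 arrangements). One library stood apart. BPN_vehicle replicate 5 lay above all 19 others in 4242 of 15400 genes and below all of them in 4101, against at most 1175 and 997 for any other library. Its median rank correlation with the others was 0.952, where the rest had at least 0.975, and limma's sample quality weight for it was 0.0779. BPN_vehicle replicate 1 had the next lowest weight, 0.48, and all others at least 0.884. In replicate 5 the 14 endothelial markers, all tested, summed to 3333 CPM against 1294 to 1528 CPM in the other 19 libraries, and the 27 calcium cycling genes summed to 7945 CPM against 17030 to 22040 CPM. No endothelial marker was at 0 in all libraries. In bulk tissue, fewer cells of a type and less RNA per cell cannot be told apart. Results below are therefore given with and without this library where it moves them, and with and without replicates 1 and 5 where both bear on a gene.

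No gene differed between the strains in its response to Cmpd17b at an adjusted p under 0.05. edgeR's quasi-likelihood test called 0 of 15400 genes (0%), with a smallest Benjamini-Hochberg adjusted p of 0.855. At an unadjusted p under 0.05 there were 714 genes (4.64%), of which 400 lay above 0 (2.6%) and 314 below (2.04%). DESeq2 also called 0, with 801 at an unadjusted p under 0.05, and limma voom with sample weights called 0, with 860. Across all genes, 50.9% of the differences were above 0 and 49.1% below. Without BPN_vehicle replicate 5 the test again called 0, now of 15523 genes, with 754 at an unadjusted p under 0.05. Then 49.1% of differences lay above 0 and 50.9% below, and genes at an unadjusted p under 0.05 made up 2.31% above 0 and 2.54% below. The 20 genes with the smallest p all had an adjusted p of 0.855 in edgeR, so every gene described below failed the correction, and its level in each mouse is given as a description. Genes were ranked by edgeR's p. The p printed for a single gene is from the exact permutation test described above, on log2(CPM + 0.5), two-sided and unadjusted unless stated, and the smallest that any gene ranked among these 20 reached there was 0.000283. That test is exact where the drug has no effect in either strain, and not where it acts alike in both.

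The precision of the interaction sets what these libraries could show. The median standard error of the strain by drug difference was 0.197 on the log2 scale, and the median half-width of its 95% interval was 0.408. For 11505 of 15400 genes (74.7%) the whole interval lay between -1 and 1. Among the 8507 genes with a mean log2 CPM of at least 3, 8291 (97.5%) did so, with a median half-width of 0.307. Differences of more than 2-fold between the drug responses were thus outside the interval for nearly all well expressed genes, while smaller ones were inside it for many. Leaving out BPN_vehicle replicate 5 lowered the median standard error to 0.159.

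Pdk4, the mitochondrial kinase that switches off pyruvate dehydrogenase when fatty acids are burned and a PPARα target, had the smallest p of all genes. Its level was 125, 166, 233, 219.8 and 119.8 CPM in BPN_vehicle replicates 1 to 5 and 519.8, 239, 172, 334 and 354 CPM in BPN_Cmpd17b. In BPH_vehicle it was 366, 561, 542, 681 and 444 CPM, and in BPH_Cmpd17b 349.9, 333, 136, 173 and 206 CPM. Every BPH_Cmpd17b mouse lay below every BPH_vehicle mouse, whereas in BPN/3J 4 of 5 drug-treated mice lay above every vehicle mouse. The drug effect was -1.12 ± 0.29 (SE, log2) in BPH/2J and 0.91 ± 0.29 in BPN/3J. The strain by drug difference was -2.02 ± 0.41 (95% interval -2.88 to -1.16, exact permutation p = 0.00041), and without BPN_vehicle replicate 5 it was -1.92. Its smallest adjusted p under any alternative was 0.0917, in DESeq2. The vehicle groups were also far apart, with means of 173 ± 52.2 (SD, n = 5) in BPN/3J and 519 ± 119.7 in BPH/2J, against 324 ± 132 and 239 ± 96.3 CPM on Cmpd17b.

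The 6 batch 2 libraries hold no drug-treated BPN/3J mouse and took no part in that fit. On a common scale over 25 libraries, Pdk4 stood at 238 and 138 CPM in the 2 batch 2 BPH_vehicle libraries and at 441 CPM in 1 BPH_Cmpd17b library, the other batch 2 BPH_Cmpd17b library being left out because kidney transcripts dominated it. The batch 1 ranges on that scale were 374 to 695 CPM for BPH_vehicle and 140.2 to 359 CPM for BPH_Cmpd17b. The order of drug and vehicle in BPH/2J was reversed in batch 2, where there was 1 drug-treated mouse. With those libraries and a batch term, the difference for Pdk4 was -1.45 in the fit of 25 libraries. In that batch 2 drug-treated mouse the wall stress gene Nppa was at 2546 CPM and Acta1 at 1587 CPM, against 499 and 886 CPM and 436 and 538 CPM in the vehicle mice.

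**Figure D1:**
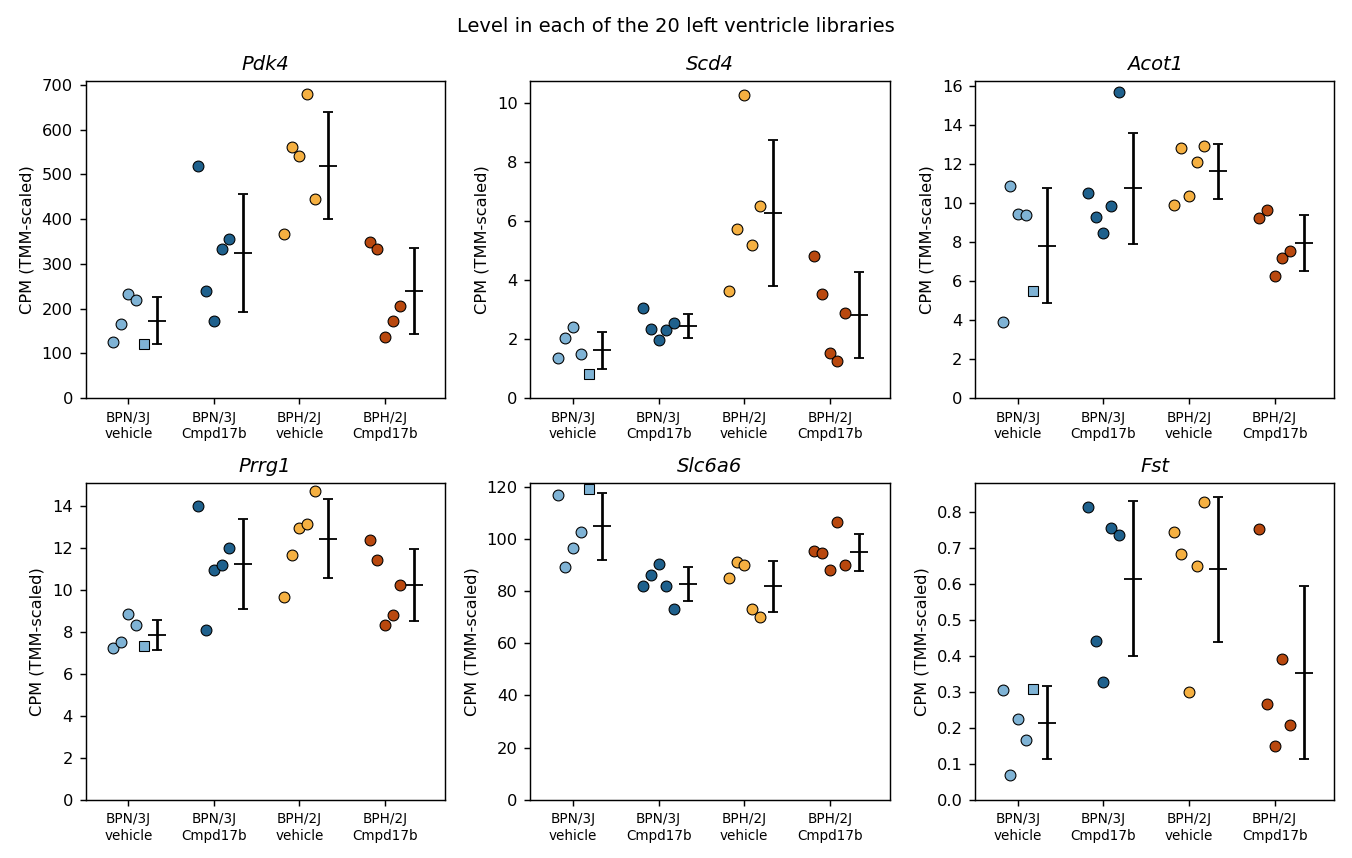
TMM-scaled CPM (linear axis from 0) of Pdk4, Scd4, Acot1, Prrg1, Slc6a6 and Fst in each of the 20 libraries, one point per mouse, with the group mean and SD (n = 5) beside the points and BPN_vehicle replicate 5 drawn as a square. In Pdk4 the BPH_Cmpd17b mice, at 136 to 349.9 CPM, sit below the BPH_vehicle mice, at 366 to 681 CPM, and the BPN/3J groups are ordered the other way.

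Several other lipid genes stood among the 20 with the smallest p. Scd4, a stearoyl-CoA desaturase of the heart, was at 3.64, 5.73, 10.3, 5.19 and 6.5 CPM in BPH_vehicle and at 4.8, 3.54, 1.52, 1.27 and 2.89 CPM in BPH_Cmpd17b. In BPN/3J it was 0.803 to 2.4 CPM on vehicle and 1.97 to 3.05 CPM on Cmpd17b. The BPH/2J groups overlapped in 1 drug-treated mouse and the BPN/3J groups overlapped more widely, and the difference was -1.77 ± 0.46 (SE, exact permutation p = 0.00107). Acot1, a cytosolic acyl-CoA thioesterase and PPARα target, was at 9.91, 12.8, 10.3, 12.1 and 12.9 CPM in BPH_vehicle and 9.21, 9.65, 6.23, 7.19 and 7.5 CPM in BPH_Cmpd17b, without overlap. In BPN_vehicle it was at 3.91, 10.9, 9.42, 9.38 and 5.47 CPM, and in BPN_Cmpd17b it ran from 8.47 to 15.6 CPM. The low vehicle values were those of replicates 1 and 5, and the other vehicle mice lay within the range of the drug-treated mice. The difference for Acot1 was -1.01 ± 0.30 (SE, exact permutation p = 0.00324), and -0.83 without BPN_vehicle replicate 1. Hsd17b11, a dehydrogenase of lipid droplets, was at 24.4 to 31 CPM in BPH_vehicle and 16.6 to 24.7 CPM in BPH_Cmpd17b, which overlapped, with a difference of -0.57 ± 0.16 (SE, exact permutation p = 0.00274). On the scale of 25 libraries, batch 2 BPH_vehicle mice had Acot1 at 6.16 and 7.27 CPM, and the drug-treated mouse 6.26 CPM. Scd4 was at 1.27 and 1.21 CPM against 0.81 CPM on drug. The batch 1 BPH_vehicle ranges on that scale were higher, at 10.1 to 13.2 CPM for Acot1 and 3.73 to 10.5 CPM for Scd4. Acot1 and Acot2 are near copies, as are the stearoyl-CoA desaturases, and how the counting divided their reads is not given in the sources used here.

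The list for fatty acid oxidation and lipid handling held 42 genes, all tested, and 0 were called. Of these, 37 lay below 0 in the strain by drug difference and 5 above (Acacb, Etfb, Fabp4, Pdk2 and Ppard), where 49.1% of all genes lay below 0. The median was -0.22 against 0.006 over all genes, and -0.17 without BPN_vehicle replicate 5, when 35 of 42 lay below 0. At an unadjusted p under 0.05 there were 8 members below 0 and 0 above, and 12 below without that library. In BPN/3J 40 of the 42 drug effects were above 0 (47.7% of all genes), and in 27 (64.3%) the effect was above 0 in BPN/3J and below 0 in BPH/2J, a combination seen in 22.6% of all genes. The reverse combination occurred in 0 members, and in 23.3% of all genes. The list's median drug effect was 0.18 in BPN/3J and -0.05 in BPH/2J. Leaving out any one library kept the median of the difference between -0.27 and -0.17. The summed level of the list was 16250 CPM in BPN_vehicle replicate 5 and 21150 to 27230 CPM in the other 19 libraries. Without that library 35 of the 42 drug effects in BPN/3J were above 0 (49.7% of all genes), with a median of 0.10, and 26 (61.9%) were above 0 in BPN/3J and below 0 in BPH/2J (25.4% of all genes). The reverse combination then occurred in 4. Without that library 8 of 12 fibroblast markers (66.7%) and 31 of 59 matrix genes (52.5%) were likewise above 0 in BPN/3J and below 0 in BPH/2J. With all 20 libraries those shares were 8.3% and 20.3%. Without BPN_vehicle replicates 1 and 5 the median effect in BPN/3J was 0.08, with 32 above 0.

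The members at an unadjusted p under 0.05 in edgeR covered storage, uptake and mitochondrial steps of lipid use. Besides Pdk4 and Acot1 they included Plin5, which coats the lipid droplets of oxidative tissue (-0.46 ± 0.16, SE, exact permutation p = 0.00202); Acot2, the mitochondrial thioesterase (-0.53, exact permutation p = 0.0178); and Cd36, the fatty acid transporter (-0.33, exact permutation p = 0.0221). They also included Cpt2, which reforms acyl-CoA inside the mitochondrion (-0.26, exact permutation p = 0.00671), and Ucp3, a mitochondrial carrier (-1.30, exact permutation p = 0.0271). BPN_vehicle replicate 5 was the lowest of its group in Acot2 (31.4 CPM), Cd36 (993 CPM) and Cpt2 (168 CPM). Without that library Acot2, Cd36 and Cpt2 still had an unadjusted p under 0.05 in edgeR. Plin5 was at 89.4, 88.3, 99.3, 92.5 and 57.2 CPM in BPN_vehicle and 92.2, 105, 94.3, 96.3 and 122 CPM in BPN_Cmpd17b. It was at 96.9, 109, 84.3, 99.1 and 91.8 CPM in BPH_vehicle and 89.7, 80.5, 81.1, 83.3 and 81.8 CPM in BPH_Cmpd17b. The low BPN_vehicle value was that of replicate 5, and without it the difference was -0.35. Ucp3 varied widely between mice, at 11.3, 9.84, 28.9, 31.9 and 30.7 CPM in BPN_vehicle and 65.4, 66.3, 18.9, 27.2 and 44.6 CPM in BPH_Cmpd17b. Its groups overlapped in both strains, BPN_Cmpd17b running from 22.5 to 57.7 CPM and BPH_vehicle from 54.3 to 92.7 CPM.

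**Figure D2:**
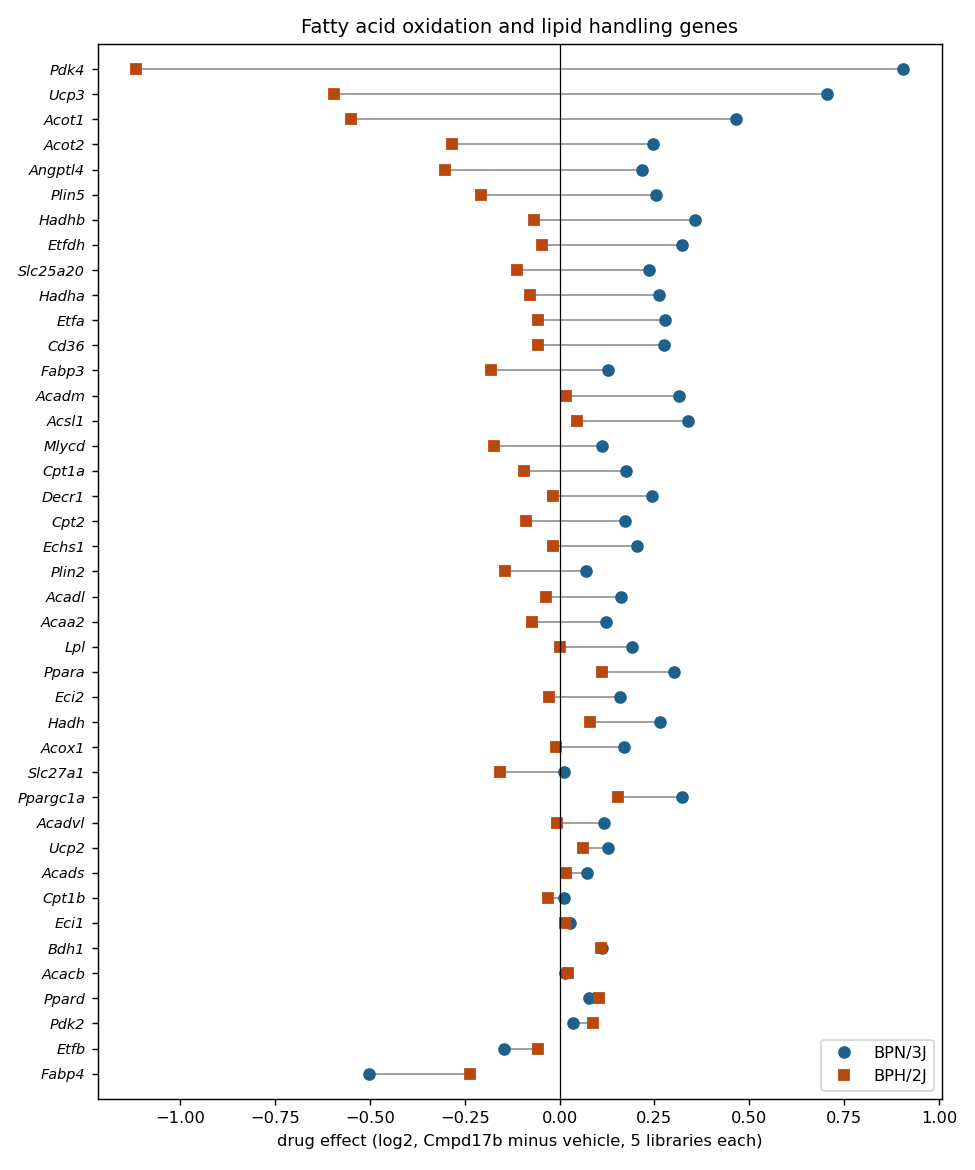
Log2 effect of Cmpd17b in BPN/3J (circles) and BPH/2J (squares) for 41 of the 42 genes of fatty acid oxidation and lipid handling, ordered by the strain by drug difference, from the fit of 20 libraries and without error bars. The circle lies to the right of the square in 36 of those drawn and the pair straddles 0 in 26, with Pdk4 widest at 0.91 and -1.12.

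Prrg1, a transmembrane protein with a Gla domain, was at 7.26, 7.53, 8.88, 8.35 and 7.35 CPM in BPN_vehicle and 14, 8.09, 10.9, 11.2 and 12 CPM in BPN_Cmpd17b. It ran from 9.68 to 14.7 CPM in BPH_vehicle and from 8.32 to 12.4 CPM in BPH_Cmpd17b. In BPN/3J 4 of 5 drug-treated mice lay above every vehicle mouse, and the difference was -0.80 ± 0.19 (SE, exact permutation p = 0.00243). Slc6a6, the taurine transporter, was at 117, 89.1, 96.5, 103 and 119 CPM in BPN_vehicle, 81.9, 86.4, 90.2, 82.1 and 73.1 CPM in BPN_Cmpd17b, 85.1, 91.1, 89.9, 73.3 and 70 CPM in BPH_vehicle and 95.5, 94.7, 88, 106 and 90.1 CPM in BPH_Cmpd17b. The drug effect was -0.34 in BPN/3J and 0.21 in BPH/2J, the groups overlapped in both strains, and the difference was 0.56 ± 0.14 (SE, exact permutation p = 0.00041).

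Fst, the secreted activin and myostatin antagonist follistatin, was scarce, at 0.304, 0.0688, 0.224, 0.167 and 0.309 CPM in BPN_vehicle and 0.815, 0.44, 0.328, 0.756 and 0.737 CPM in BPN_Cmpd17b, which did not overlap. In BPH_vehicle it was 0.744, 0.684, 0.299, 0.649 and 0.827 CPM and in BPH_Cmpd17b 0.753, 0.267, 0.149, 0.391 and 0.207 CPM, which did. The difference was -2.34 ± 0.61 (SE, exact permutation p = 0.00167). The 0.5 CPM added in the permutation test exceeds every BPN_vehicle level of Fst, and on that scale the difference was -1.07. Small differences with tight spread made up most of the rest. Dmwd differed by 0.37, Dhx40 by -0.35, Armt1 by -0.52, Zfp277 by -0.37, Gm13375 by 0.43, Adamts3, a procollagen and VEGF-C processing protease, by 0.58, and Zc3h12a, an RNase that degrades inflammatory transcripts, by 0.63. For Dhx40, an RNA helicase family member, all BPN_Cmpd17b mice (15.8 to 18.3 CPM) lay above all BPN_vehicle mice (12.9 to 15.4 CPM), while the BPH/2J groups overlapped (16.4 to 18.3 CPM on vehicle and 15.7 to 17 CPM on drug). Muc3a, a membrane mucin, differed by 1.18, with its highest level (5.59 CPM) in BPN_vehicle replicate 5, and by 0.90 without that library.

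Clec2e, Gm14305 and Spata31f1c were at 0 counts in all 5 BPN_Cmpd17b libraries and held only 17, 12 and 29 counts over the BPN_vehicle libraries. Against a floor of 3 counts over the BPN_Cmpd17b group, their BPN_vehicle levels were 5.94-fold, 4.19-fold and 10.1-fold higher. The floor stands in for the 0 counts only, and the BPN_vehicle counts are taken as they stand. Exact permutation p for the strain by drug difference were 0.344, 0.981 and 0.0165 for Clec2e, Gm14305 and Spata31f1c. That test adds 0.5 CPM, which exceeds every BPN/3J level of these genes. Their fitted differences, which depend on the prior count, are not given. Single BPN_vehicle libraries moved these ratios. Without replicate 4 that of Clec2e was 4.44-fold and without replicate 3 that of Gm14305 was 2.57-fold. Spata31f1c was at 0, 0.447, 0.0962, 0.362 and 0 CPM in BPN_vehicle, where replicates 2 and 4 held 13 counts each and replicates 1 and 5 none. Its ratio was 6.76-fold without replicate 2 and 7.11-fold without replicate 4. In BPH/2J Gm14305 was at 0.972 to 1.43 CPM on vehicle and 0.634 to 1.74 CPM on Cmpd17b, and Clec2e at 0.162 to 0.63 and 0.171 to 0.434 CPM. Spata31f1c ran from 0 to 0.307 CPM in BPH_vehicle and from 0 to 1.24 CPM in BPH_Cmpd17b. All 3 belong to families of similar genes, so their counts are uncertain.

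**Figure D3:**
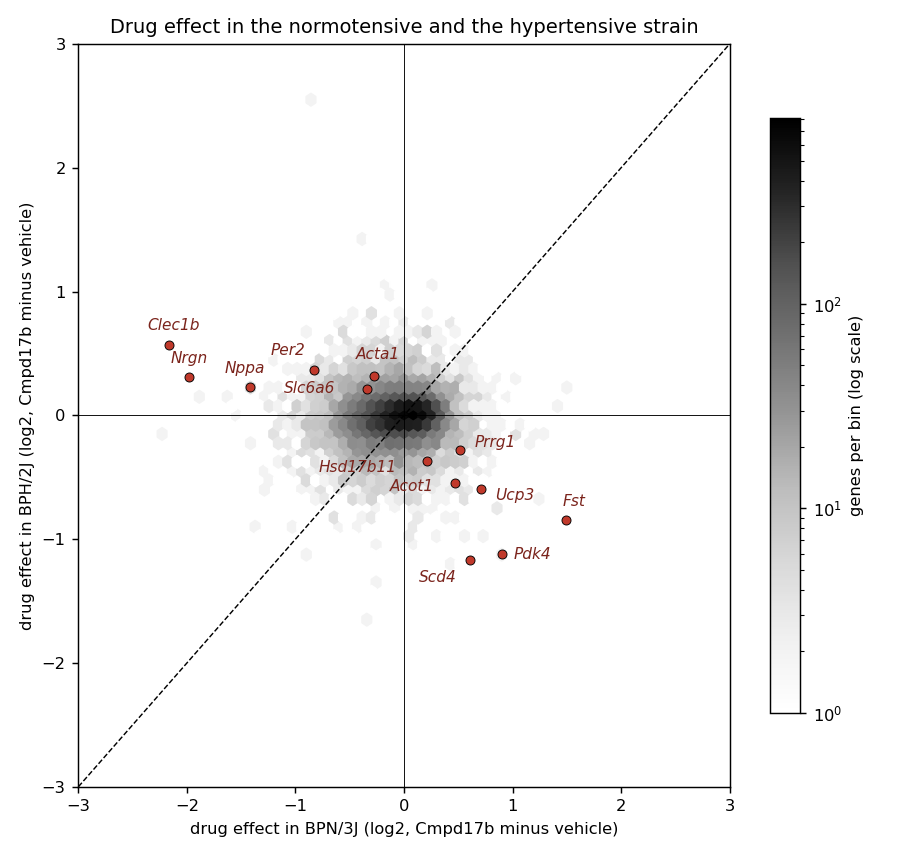
Log2 effect of Cmpd17b in BPN/3J (horizontal) against that in BPH/2J (vertical) for 15381 of the 15400 genes tested, as counts per hexagon on a log colour scale, with 13 named genes as points; 19 genes lie outside the axes. The dashed line marks equal effects, and Pdk4, Scd4, Ucp3 and Fst lie below it at the right while Nppa, Nrgn and Clec1b lie above it at the left.

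Of the 23 tested genes of wall stress and the fetal programme, 16 had a drug effect below 0 in BPN/3J and 7 above, where 47.7% of all genes lay above 0. The list's median drug effect was -0.28 in BPN/3J and -0.01 in BPH/2J. Without BPN_vehicle replicate 5 the median in BPN/3J was -0.14 with 4 of 23 above 0, and without replicates 1 and 5 it was -0.04 with 9 above 0. Nppa, which encodes atrial natriuretic peptide, was at 855, 165, 275, 284 and 668 CPM in BPN_vehicle and 190.1, 196, 199, 179 and 75.7 CPM in BPN_Cmpd17b. In BPH_vehicle it was 776, 317, 455, 339 and 516 CPM and in BPH_Cmpd17b 589, 708, 567, 509 and 443 CPM. Replicates 1 and 5 were the highest BPN_vehicle mice, and replicate 2 lay within the range of the drug-treated mice. The difference was 1.65 ± 0.54 (SE), with an exact permutation p of 0.0157 and 0.223 after adjustment over the 32 values tested that way (28 genes fixed by name and 4 quality measures). Without BPN_vehicle replicate 5 the difference was 1.46, and without replicates 1 and 5 it was 0.76.

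Nppb, for B-type natriuretic peptide, was at 607, 306, 247, 276 and 242 CPM in BPN_vehicle and 194, 214, 238, 274 and 213 CPM in BPN_Cmpd17b, and from 131 to 193 and 139 to 189.9 CPM in the BPH/2J groups. Replicate 1 alone held the high vehicle value, and the difference was 0.62 ± 0.27 (SE) with all libraries, 0.30 without replicate 1 and 0.34 without replicates 1 and 5. Acta1, the skeletal α-actin re-expressed in loaded hearts, was at 365, 559.8, 379.7, 495 and 597 CPM in BPH_vehicle and 633, 575, 702, 568 and 517 CPM in BPH_Cmpd17b, with drug effects of 0.32 in BPH/2J and -0.28 in BPN/3J and a difference of 0.60 ± 0.23 (SE, exact permutation p = 0.0262). The groups overlapped in both strains, and the exact permutation p of Acta1 was 0.223 after adjustment over the 32 values. Ankrd1, a titin-associated stress gene, was 1376 ± 275 CPM in BPH_vehicle and 1369 ± 168 CPM in BPH_Cmpd17b (SD, n = 5), against 442 ± 170.0 and 280.1 ± 75.8 CPM in BPN/3J. Its difference was 0.65 ± 0.28 (SE, exact permutation p = 0.0662, and 0.3025 after the same adjustment), and 0.39 without BPN_vehicle replicate 1. Myh7, the slow myosin heavy chain, differed by 0.38 ± 0.22 (SE) with BPN_vehicle replicate 5 at 2179 CPM and the other vehicle mice at 1290.3 to 1395 CPM, and by 0.21 without it. Of the 23 stress and fetal genes tested 0 were called, 15 lay above 0 and 4 of them had an unadjusted p under 0.05, with a median of 0.15 and 0.12 without replicate 5. That median was 0.08 without BPN_vehicle replicate 1, 0.09 without BPH_vehicle replicate 3 and 0.04 without BPH_Cmpd17b replicate 3.

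**Figure D4:**
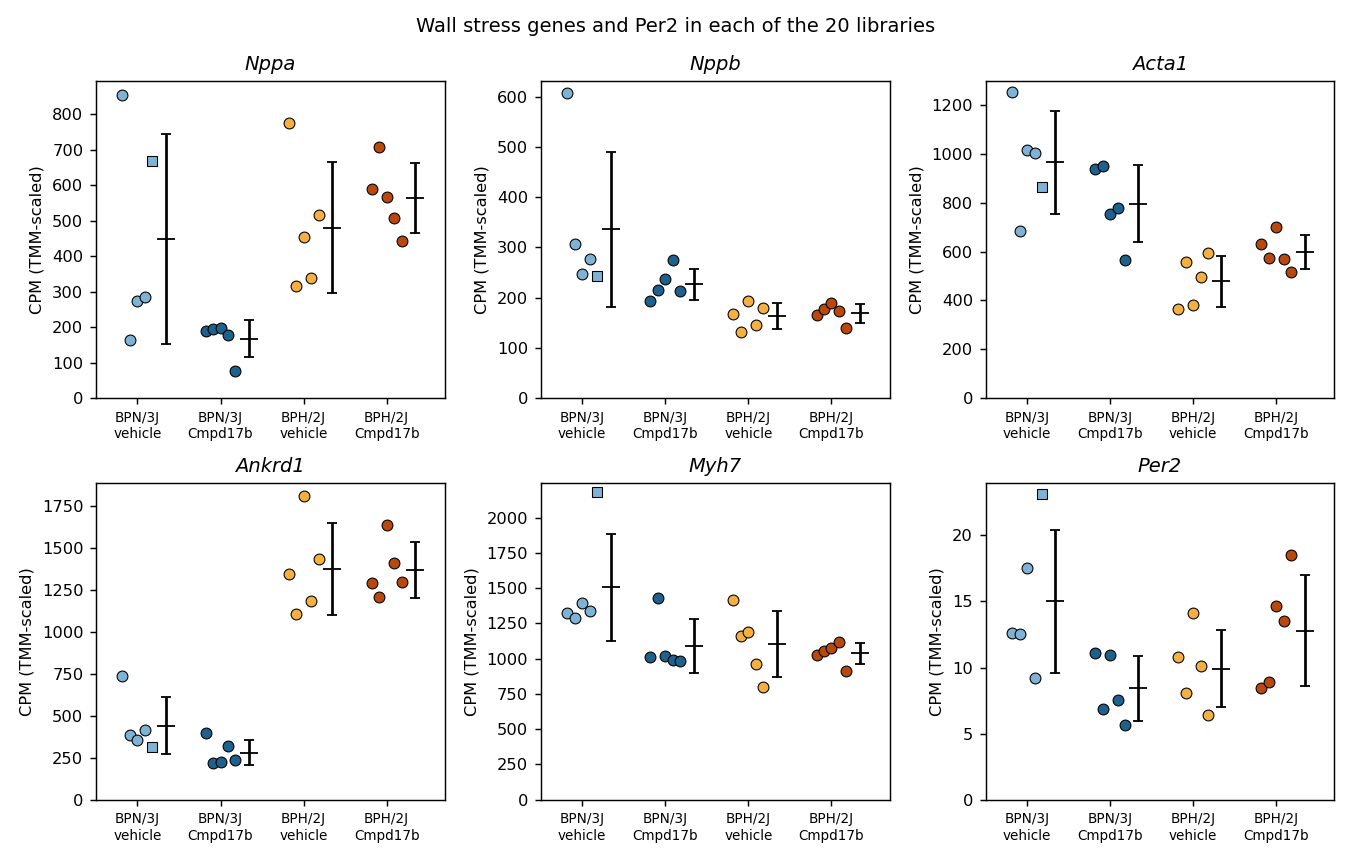
TMM-scaled CPM (linear axis from 0) of Nppa, Nppb, Acta1, Ankrd1, Myh7 and Per2 in each of the 20 libraries, with group mean and SD (n = 5) and BPN_vehicle replicate 5 as a square. The BPN_vehicle spread of Nppa, 165 to 855 CPM, is wider than that of BPN_Cmpd17b, 75.7 to 199 CPM, and the BPH/2J groups overlap.

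Clock genes were another list with members at a small unadjusted p, of which Per2, Per3, Tef and Dbp lay above 0 and Clock below. Per2, a repressor of the loop, was at 12.6, 12.6, 17.5, 9.24 and 23.1 CPM in BPN_vehicle and 11.1, 6.87, 11, 7.51 and 5.67 CPM in BPN_Cmpd17b. It was at 10.8, 8.09, 14.1, 10.2 and 6.4 CPM in BPH_vehicle and 8.42, 8.88, 14.7, 13.5 and 18.5 CPM in BPH_Cmpd17b. The groups overlapped in both strains, and the difference was 1.20 ± 0.37 (SE, exact permutation p = 0.014), or 0.99 without BPN_vehicle replicate 5. The output regulator Tef differed by 0.48 (exact permutation p = 0.0259) and Dbp, another, by 0.68 (exact permutation p = 0.0656). Per3, a further Period gene, differed by 0.74 (exact permutation p = 0.0425). Without BPN_vehicle replicate 5 Tef differed by 0.41, Dbp by 0.53 and Per3 by 0.52. Their unadjusted p in edgeR was 0.0372 for Dbp and 0.0208 for Per3 with that library, and 0.131 and 0.0879 without it. Clock, an activator of the loop, differed by -0.38 (exact permutation p = 0.0248), and Bmal1, its partner, by -0.86 (exact permutation p = 0.108). Bmal1 was neither at an unadjusted p under 0.05 in edgeR nor of smallest p in its list. The remaining members are not reported here by name, so repressors and activators are not described as sets. Bmal1 varied within groups, from 2.53 to 9.22 CPM in BPN_vehicle and 3.07 to 6.85 CPM in BPH_vehicle. Of 21 members tested 0 were called and 14 lay above 0, with a median of 0.14. It was 0.07 without BPN_vehicle replicate 3, 0.08 without BPN_Cmpd17b replicate 5 and 0.22 without BPH_vehicle replicate 3. The time of day of collection is not given in the sources used here, and its part in these values was not tested.

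Vascular, interferon and antigen presentation genes had list medians well above 0, and these moved with single libraries. Of the 14 endothelial markers tested 14 lay above 0, with a median of 0.32, and without BPN_vehicle replicate 5 the median was -0.02 with 7 above 0. Eng, an endothelial TGF-β co-receptor, was at 124, 134, 125, 131 and 258 CPM in BPN_vehicle, where replicate 5 stood alone, and at 109 to 134 CPM in BPN_Cmpd17b. Its difference was 0.54 with that library and 0.28 without. Nos3, the endothelial nitric oxide synthase, was likewise highest there, at 72.4 CPM, and its difference was 0.52 with and 0.14 without it. The angiopoietin and VEGF list of 21 tested genes had a median of 0.31 with and 0.04 without that library, and the 14 smooth muscle and pericyte markers 0.26 and 0.08. The 42 tested interferon response genes had 40 above 0 and a median of 0.36, which was 0.10 with 30 above 0 without replicate 5 and 0.17 without BPH_Cmpd17b replicate 4. Their summed level was 680.2 CPM in BPN_vehicle replicate 5 and 637.4 CPM in BPH_Cmpd17b replicate 4, and at most 430.9 CPM elsewhere.

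The 22 antigen presentation genes had a median of 0.26, of 0.05 without BPN_vehicle replicate 5 and of -0.03 without BPH_Cmpd17b replicate 4. H2-K1, a class I heavy chain, was at 144, 119.7, 144, 128 and 244 CPM in BPN_vehicle and 51, 65.5, 65.1, 131 and 49.8 CPM in BPH_Cmpd17b, where replicates 5 and 4 held the high values. Its difference was 0.29 ± 0.32 (SE) with all libraries, 0.07 without the first and -0.04 without the second. Class I genes have near-identical copies and their counts are uncertain. Tapbp, a chaperone of class I loading, differed by 0.33 ± 0.12 (SE, exact permutation p = 0.00699) and by 0.24 without replicate 5. The counts called in these lists were 0 throughout.

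**Figure D5:**
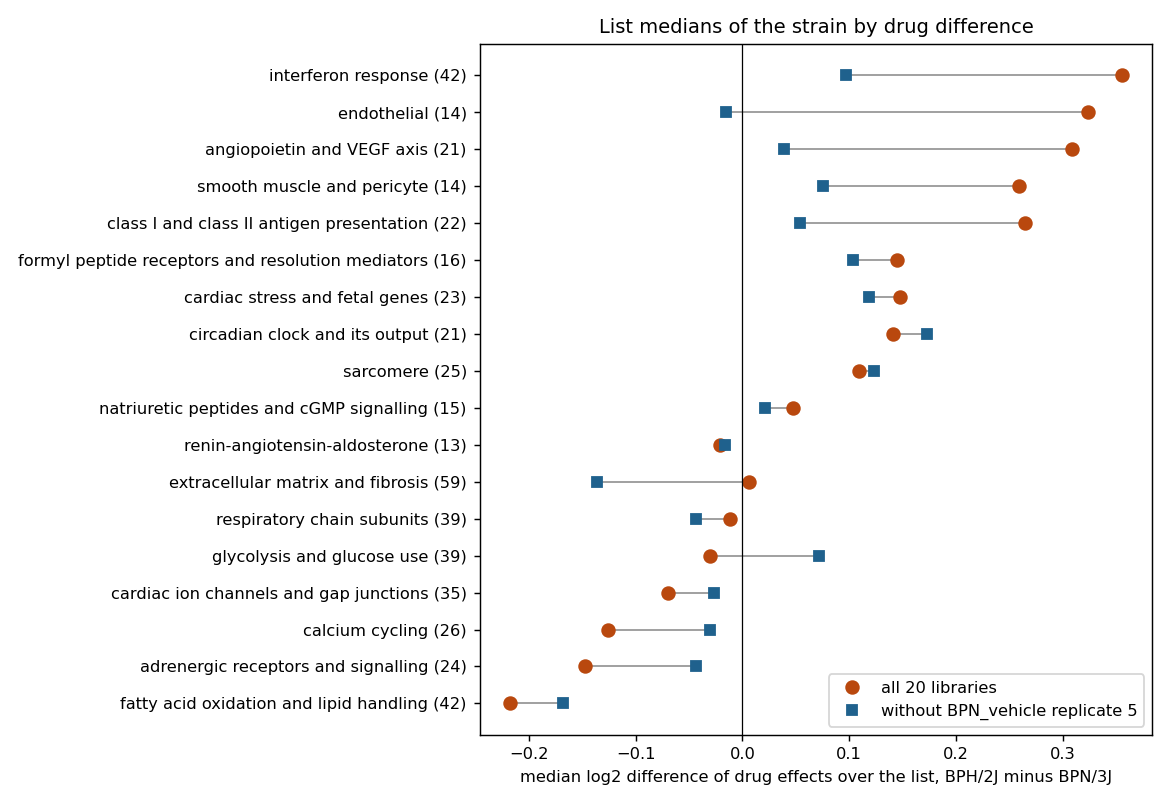
Median strain by drug difference (log2, BPH/2J minus BPN/3J) over 18 of the 44 gene lists, with the number of genes tested in parentheses, in the fit of all 20 libraries (circles) and without BPN_vehicle replicate 5 (squares). The lists not drawn include the hepatocyte and erythroid markers, with medians of 1.48 and 0.54 in all 20 libraries. The endothelial median moves from 0.32 to -0.02 and the interferon median from 0.36 to 0.10, while the fatty acid median moves from -0.22 to -0.17.

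Transcripts of platelets and liver were highest in single BPN_vehicle mice. Nrgn, a calmodulin-binding protein abundant in platelets, was at 9.39, 1.75, 1.76, 1.81 and 3.58 CPM in BPN_vehicle and 0.868, 1.08, 1.43, 0.857 and 0.425 CPM in BPN_Cmpd17b. In BPH/2J it ran from 0.898 to 1.52 CPM on vehicle and from 1.03 to 2.31 CPM on Cmpd17b. All BPN_vehicle mice lay above all BPN_Cmpd17b mice, and replicate 1 lay far above the rest. The difference was 2.29 ± 0.58 (SE, exact permutation p = 0.00224), and 1.25 without replicates 1 and 5. On log2(CPM + 0.5), the scale of the permutation test, the difference with all libraries was 1.515. Clec1b, Itga2b and Ppbp, a platelet receptor, integrin and chemokine, were likewise highest in BPN_vehicle replicate 1, at 1.57, 4.69 and 2.94 CPM. Clec1b was among the 20 genes of smallest p for the interaction and Itga2b among the 5 for the drug effect in BPN/3J. Ppbp was picked out, and the platelet genes grouped, after their values were seen. Ppbp ran from 0.516 to 2.94 CPM in BPN_vehicle and from 0.176 to 0.447 CPM in BPN_Cmpd17b, without overlap. For Clec1b and Itga2b the BPN/3J groups overlapped. The differences of Clec1b, Itga2b and Ppbp, 2.74, 1.80 and 2.02, were 1.55, 0.84 and 1.22 without replicates 1 and 5. The hepatocyte list of 8 tested genes lay above 0 throughout with a median of 1.48, and its summed level was 146.4 CPM in BPN_vehicle replicate 2, 66.9 CPM in replicate 1 and at most 46.51 CPM in the other libraries. That median was 0.62 without BPN_vehicle replicate 2, 2.47 without BPN_Cmpd17b replicate 5 and 2.21 over 11 genes tested without BPN_vehicle replicate 5. Alb, for serum albumin, was at 5.35, 34, 0, 0.0835 and 0 CPM in BPN_vehicle. The 8 tested erythroid markers also lay above 0 throughout, with 0 called and a median of 0.54. Their median was 0.28 without BPN_vehicle replicate 5, again with 8 above 0, and 0.47 without replicates 1 and 5. The part of blood and liver transcripts in other differences was not tested.

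The receptors of the drug were scarce in whole ventricle. Fpr1 was at most 0.448 CPM and Fpr2 at most 0.328 CPM in any library, below the filter on low counts, and their exact permutation p for the interaction were 0.503 and 0.207. The 0.5 CPM added in that test exceeds every level of both genes. Anxa1, the endogenous ligand of FPR2, was 25.1 ± 8.07, 23.4 ± 3.6, 24.6 ± 2.1 and 22.1 ± 2.34 CPM (SD, n = 5) in BPN_vehicle, BPN_Cmpd17b, BPH_vehicle and BPH_Cmpd17b, with an interval for the difference of -0.51 to 0.40. Mertk, a receptor for the uptake of dead cells, differed by 0.48 ± 0.25 (SE), and by 0.24 without BPN_vehicle replicate 5. Of 16 genes tested for formyl peptide receptors and resolution 0 were called, 11 lay above 0, and Cd36 alone had an unadjusted p under 0.05.

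Blood pressure genes were not called either. In the renin-angiotensin list, 6 of 13 tested genes lay above 0 and the median was -0.02, between -0.12 without BPN_vehicle replicate 3 and 0.06 without BPN_vehicle replicate 1. Agt, for angiotensinogen, was at 3.77 to 5.96 CPM in BPN_vehicle, 2.69 to 5.49 CPM in BPN_Cmpd17b, 0.66 to 0.846 CPM in BPH_vehicle and 0.772 to 1.09 CPM in BPH_Cmpd17b. Its groups overlapped in both strains and its difference was 0.64 ± 0.28 (SE, exact permutation p = 0.0273, and 0.223 after adjustment over the 32 values tested that way). Enpep, an aminopeptidase that degrades angiotensin II, differed by -0.39 ± 0.16 (SE, exact permutation p = 0.0335). The intervals for Ace and Agtr1a, the converting enzyme and the angiotensin receptor, were -0.10 to 0.61 and -0.43 to 0.35. Among endothelin genes, Edn3 was at most 0.228 CPM in BPN/3J and ran from 7.01 to 8.1 CPM in BPH_vehicle and from 7.11 to 15.2 CPM in BPH_Cmpd17b. Its interval was 0.04 to 2.44, with an exact permutation p of 0.0484, and 0.3025 after adjustment over the 32 values. Without BPN_vehicle replicate 5, 0 of the 6 endothelin genes tested had an unadjusted p under 0.05 in edgeR. The intervals of Edn1, Ednra and Ednrb were -0.34 to 0.82, -0.70 to 0.24 and -0.28 to 0.44. For Adrb1, the main cardiac β-adrenoceptor, the interval was -0.70 to 0.49, and for Npr3, the natriuretic peptide clearance receptor, -0.32 to 0.34.

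Matrix, myosin and calcium genes completed the fixed set. The intervals for the fibrillar collagens Col1a1 and Col3a1 were -0.79 to 0.57 and -1.05 to 0.22, for the matricellular Postn -1.01 to 0.84 and for Ccn2 -0.15 to 1.22. The difference for Ccn2 was 0.54, and 0.19 without BPN_vehicle replicate 1. Of 59 matrix genes tested 31 lay above 0 with a median of 0.01, and without BPN_vehicle replicate 5 there were 16 above 0 with a median of -0.14. Myh6, the adult myosin heavy chain, had an interval of -0.17 to 0.43, and Atp2a2, the calcium pump of the sarcoplasmic reticulum, one of -0.92 to 0.26. Atp2a2 was at 7038, 8246, 9248, 8566 and 2550.0 CPM in BPN_vehicle, where replicate 5 was low, and its difference was -0.33 with that library and -0.12 without. Il15, a cytokine that sustains lymphocytes, was at 28.8, 29.6, 34, 29.6 and 16.8 CPM in BPN_vehicle and 30.5, 31.4, 35.7, 37.9 and 35.1 CPM in BPN_Cmpd17b, again with replicate 5 lowest, and 1.78 to 2.44 and 1.64 to 2.37 CPM in the BPH/2J groups. Its difference was -0.46 ± 0.22 (SE, exact permutation p = 0.0279, and 0.223 after adjustment over the 32 values), and -0.32 without that library. C7, a terminal complement component, had an interval of -0.46 to 0.94.

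The drug effect within each strain, whose difference is the interaction, called no gene in edgeR, and whether the strains differed in their counts at an unadjusted p was not tested. The drug effect in BPH/2J called 0 genes, with 239 (1.55%) at an unadjusted p under 0.05. In BPN/3J it also called 0, with 1945 (12.6%). Without BPN_vehicle replicate 5 the counts at an unadjusted p under 0.05 were 470 (3.03%) in BPH/2J and 935 (6.02%) in BPN/3J. Without replicates 1 and 5 they were 598 (3.8%) and 789 (5.02%). In limma voom with sample weights the shares were 3.81% and 6.23%. DESeq2 called 0 in BPH/2J (261 unadjusted) and 1 in BPN/3J, Nrgn at an adjusted p of 0.012 (2085 unadjusted). The smallest p in BPH/2J belonged to Pdk4, Scd4, Cacna2d3, B430306N03Rik and Map6. Map6, a microtubule-stabilising protein, was at 2.03, 2.26, 2.27, 2.43 and 2.36 CPM in BPH_vehicle and 1.39, 1.7, 1.42, 1.64 and 1.24 CPM in BPH_Cmpd17b without overlap, a drug effect of -0.62 ± 0.18 (SE) in BPH/2J against -0.27 in BPN/3J. Cacna2d3, a calcium channel subunit, had drug effects of -1.63 and -0.37 in BPH/2J and BPN/3J, and B430306N03Rik 1.77 and 0.10. In BPN/3J the 5 were Nrgn, Clec2e, AI661453, Itga2b and Gm14305, with effects of -1.98, -1.62 and -1.62 for the 3 that were detected in every library. The average of both drug effects called 0 genes in edgeR (937 unadjusted, smallest adjusted p 0.72) and in DESeq2 (1031 unadjusted). Of its smallest p, Rps21, a ribosomal protein of the small subunit, had drug effects of -0.21 in BPH/2J and -0.47 in BPN/3J, and Adal, an adenosine deaminase-like enzyme, 0.23 and 0.38.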

How the data were processed

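Polyadenylated RNA from left ventricle was sequenced in 26 libraries, of which the 20 of batch 1 enter the main tests and the others only 2 alternatives. The deposited table holds expected counts per gene, not normalized by the authors, for 40413 genes, with 93.5% of its values whole. The submitters' processing notes name Trim Galore 0.6.7, STAR 2.7.9a and the mouse build GRCm39. Not given in the sources used here are the counting program, its strand setting and its annotation. How reads shared by near-identical genes were divided is therefore unknown.

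Expected counts were rounded to whole numbers. Genes were kept by filterByExpr (15400 of 40413), scaled by TMM and fitted with edgeR 4.0.16 (robust quasi-likelihood, 1 coefficient per group, R 4.3.3). The contrast was the drug effect in BPH/2J minus that in BPN/3J, adjusted by Benjamini-Hochberg over all genes tested, with a threshold of 0.05. Standard errors are the log2 difference divided by the square root of F. Exact permutation tests used log2(CPM + 0.5). Alternatives used DESeq2 1.42.0, limma 3.58.1, other filters and scalings, the batch 2 libraries with a batch term, and each library left out. The scripts were tested on simulated data.

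Genes named were the 20 of smallest p for the interaction, the 5 of smallest p for each drug effect and for their average, 28 genes set by name and members of the gene lists. Those members were at an unadjusted p under 0.05 or had the smallest p of their list, and Bmal1 was named without meeting either. The groups, gene lists and genes set by name were chosen with earlier results of these data known. Ppbp and Alb were added after their values were seen, as was the fit of 18 libraries. Of 40 pairs of libraries within a group, 0 were identical. Some members of these lists are not reported here by name. Nothing in the labels ties mice of different groups together.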

Additional observations from a re-analysis of the deposited data

Results flagged for a closer look

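In 305 sets of 5 libraries, one for each gene or quality measure and group, 31 (10.2%) had a highest or lowest library whose gap to its neighbour exceeded 0.71 of the group's range. That limit would be passed in about 1 in 20 sets of independent, normally distributed values. Most values here are CPM on a linear scale, the sets share libraries, and the genes were partly chosen for large values. The rate due to chance in these data is therefore not known. Values are CPM, with the range of the other 4 libraries of the group.

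10 of the 31 fell on BPN_vehicle replicate 5 and 5 on BPN_vehicle replicate 1. BPN_vehicle replicate 5 was high in Mertk (15.8 against 7.21 to 9.39), Myh7 (2179 against 1290.3 to 1395), Tap1 (21.5 against 8.46 to 12.1), Eng (258 against 124 to 134), Col1a1 (65.4 against 29.3 to 38.4), Ednrb (22.4 against 13.4 to 15.9), Nos3 (72.4 against 26.7 to 33.5) and H2-K1 (244 against 119.7 to 144) and low in Plin5 (57.2 against 88.3 to 99.3) and Cpt2 (168 against 193 to 202). BPN_vehicle replicate 1 was high in Nrgn (9.39 against 1.75 to 3.58), Clec1b (1.57 against 0.16 to 0.556), Nppb (607 against 242 to 306), Ankrd1 (738 against 315 to 417) and Ppbp (2.94 against 0.516 to 0.896).

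The others were spread over 12 libraries. BPN_vehicle replicate 4 was high in Armt1 (8.13 against 6.09 to 6.67). BPN_Cmpd17b replicate 4 was high in Armt1 (9.85 against 8.21 to 8.36) and low in Adamts3 (4.76 against 5.63 to 5.89). BPH_vehicle replicate 2 was high in Spata31f1c (0.307 against 0 to 0.0649) and Fpr1 (0.448 against 0 to 0.0499). BPN_Cmpd17b replicate 5 was high in Acot1 (15.6 against 8.47 to 10.5) and low in Nppa (75.7 against 179 to 199). BPN_Cmpd17b replicate 3 was low in Rps21 (49.2 against 57.2 to 58.8). BPH_Cmpd17b replicate 3 was high in Eng (129 against 99.4 to 107) and low in Cd36 (1041 against 1287 to 1357). BPH_Cmpd17b replicate 1 was high in Agt (1.09 against 0.772 to 0.856). BPN_Cmpd17b replicate 2 was high in Myh7 (1428 against 984 to 1019). BPH_vehicle replicate 5 was high in Oas1b (1.2 against 0.941 to 1.01). BPH_Cmpd17b replicate 4 was high in H2-K1 (131 against 49.8 to 65.5). BPN_vehicle replicate 2 was high in Alb (34 against 0 to 5.35). The mitochondrial share of BPH_Cmpd17b replicate 5 was 37.65%, against 34.2% to 35.1% in the other libraries of that group.

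A batch 2 library labelled left ventricle of a BPH/2J mouse on Cmpd17b, left out of all fits but the one with 26 libraries, held the kidney transcripts Kap at 18399 CPM, Slc34a1 at 2460.8 CPM and Umod at 1873 CPM. The other 25 libraries held at most 124.8, 13.6 and 6.72 CPM. The cardiac myosin gene Myh6 was at 12.0 CPM in it and at least 13363 CPM in the others.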

How the results depend on the processing

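The strain by drug interaction called 0 genes under every alternative run, with 341 to 1345 genes at an unadjusted p under 0.05. For the drug effect in BPN/3J, DESeq2 called 1 gene, where edgeR called 0. Leaving out each library in turn gave 0 calls in all 4 contrasts, and 554 to 1071 genes at an unadjusted p under 0.05 for the interaction, the lowest without BPH_vehicle replicate 5 and the highest without BPN_vehicle replicate 4. For BPN/3J that range was 935 (without BPN_vehicle replicate 5) to 2851 (without BPN_vehicle replicate 4), and for BPH/2J 198 to 470. Of 73 genes 59 kept the sign of their difference in every alternative, as did 19 of 44 list medians. Changed signs, as log2 differences, were as follows, and the cause was not tested. With 26 libraries and a batch term, which include the library rich in kidney transcripts, they were Hsd17b11 0.33, Myh6 -0.15, Enpep 0.43, Edn1 -0.11, Npr3 -0.15, Col1a1 0.18 and Postn 0.62. With 25 libraries they were Anxa1 0.028, Npr3 -0.14, Col1a1 0.31, Col3a1 0.069 and Postn 0.73. In limma voom with sample weights they were Agtr1a 0.14, Ednrb -0.076, Adrb1 0.094 and C7 -0.024. With 18 libraries, a choice made after seeing the data, they were Agtr1a 0.19, Edn1 -0.014, Ednrb -0.027, Adrb1 0.16 and C7 -0.048. Leaving out 1 library gave ranges across 0 for H2-K1 -0.038 to 0.40, Anxa1 -0.23 to 0.062, Agtr1a -0.12 to 0.11, Ednrb -0.070 to 0.15, Adrb1 -0.26 to 0.11, Npr3 -0.065 to 0.13, Col1a1 -0.34 to 0.11 and Postn -0.31 to 0.15. No paired analysis was possible because replicate numbers follow only the order of the samples.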
